A study of Mus musculus with 6 samples.

Results

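The mitochondrial ribosomal protein genes were taken as all genes of the deposited spleen expression table whose symbol is Mrpl or Mrps followed by a number, without pseudogene symbols, and whose normalized count averaged at least 1 across the 6 libraries. A normalized count is a read count divided by the size factor of its library, and the deposited log2 values were turned back into it. The table holds 26452 genes, of which 82 carry such a symbol. Of these, 4 are named as pseudogenes, and the other 78 were all kept, with 0 under the minimum. The gene nearest the minimum was Mrpl53, with a mean of 103.9 normalized counts, and the highest mean was 2790 for Mrpl24, so the minimum left no member close to it. Spleens came from male mice aged 10 weeks. The knockout (KO) group held 3 libraries from Was -/- mice of the strain 129S6/SvEvTac-Wastm1Sbs/J, and the wild-type (WT) group 3 libraries from 129S6/SvEvTac mice. The product of Was promotes branching of actin filaments in blood cells, its loss causes Wiskott-Aldrich syndrome in humans, and the series asks how the spleen differs in the mouse model. The allele is a targeted germline mutation present in all cells, and each library is bulk spleen RNA.

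Mitochondrial ribosomes, or mitoribosomes, make the few proteins that the mitochondrial genome encodes, all of them parts of the respiratory chain or of ATP synthase. Their RNA is transcribed from mitochondrial DNA, but every one of their proteins is encoded in the nucleus, translated in the cytosol and imported. Some of these proteins descend from bacterial ribosomal proteins and others have no bacterial counterpart and were added in the mitochondrial lineage. In spleen, growing and dividing lymphocytes and the erythroid and myeloid precursors of the mouse red pulp are known to make more mitochondria and mitoribosomes. Of the 78 genes, 51 encode proteins of the large subunit and 26 proteins of the small subunit. Mrps18a and Mrps30 were counted with the large subunit, where structures place their proteins. Mrps36 was counted with neither, because its protein is now known as a subunit of the 2-oxoglutarate dehydrogenase complex. By ancestry, 47 have a bacterial counterpart and 31 are specific to mitochondria. The genes lay on 17 chromosomes, with 11 on chromosome 11.

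The libraries held between 30661759 (WT455) and 38402758 (WT454) reads assigned to genes, and each of the 78 genes had between 58 and 4494 reads in every library. Was had 508, 407 and 409 normalized counts in KO spleens, against 4142, 6561 and 6279 in WT spleens, a check of the labels that was passed in every library (log2 fold change -3.66 ± 0.25 SE, adjusted p = 0.0117, limma). Spleen markers were present in all libraries; for example, Cd3e of T cells had 1688 to 3150 in KO and 2472 to 4592 in WT. The library WT453 stood apart from the other 2 WT libraries. Its 13 mitochondrial mRNAs were the lowest of all 6 libraries, and limma's array quality weights, which measure how far a library departs from its group, gave it the lowest weight, 0.16, against 4.70 for WT455. Values without WT453 are therefore given beside the results that it moved most. Column names of the KO libraries carry a suffix that the WT names lack; if it marks separate handling, that cannot be told apart from genotype. In bulk RNA, a change in the number of cells of a type cannot be told apart from a change in RNA per cell.

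Per kilobase of exon, the 78 genes spanned a 30.4-fold range of normalized counts averaged over the 6 libraries, with a median of 409 per kilobase. Mrps21, whose protein sits on the platform of the small subunit, stood at 2214 normalized counts per kilobase, and Mrpl18, a 5S rRNA-binding protein in bacteria that is part of the central protuberance of the mitochondrial large subunit, at 1743. Mrpl12, the stalk protein that contacts translation factors, followed at 1664, Mrpl54 at 1449, Mrpl34 at 1274 and Mrpl24, a protein at the rim of the exit tunnel, at 1237. At the low end stood Mrps10 of the small subunit head at 72.9, Mrps35 at 90.5, Mrpl47 at 123 and Mrpl15 at 126. The spread among genes of a complex with fixed stoichiometry was thus wide at the RNA level, on a scale that counts every annotated exon of a gene, also exons of rare isoforms. The longest annotated transcripts of these genes were short, with a median of 1866.5 bases against 3251 bases for all protein-coding genes tested, and had a median GC content of 49.77% against 49.97%.

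Most of the mitochondrial ribosomal protein genes had a slightly higher mean in KO than in WT spleen, and the shift of nearly all of them was small. The mean log2 value was higher in KO in 61 of 78 genes, or 78.2%, against 47.7% of the 22071 genes tested. The median log2 fold change, KO over WT, was 0.22 over the 78 genes, which is 1.16-fold, against -0.03 over all genes tested. The interquartile range was 0.04 to 0.42, the median standard error of a single gene was 0.24, 65 genes lay within 0.5 of 0, 13 lay above 0.5 and 0 below -0.5. The genes share the same 6 libraries, so the 78 values are not 78 independent observations. In limma, 0 of 78 passed a Benjamini-Hochberg adjusted p of 0.05 over all genes tested (background 0.00906%), and the smallest adjusted p was 0.344. At an unadjusted p under 0.05, 6 genes were higher in KO (background 5.5%) and 0 were lower (background 5.46%). With voom on the whole reads, 5 were higher, 0 were lower and 0 passed the adjustment. The 3 KO libraries all lay above the 3 WT libraries in 20 genes (background 9.54%) and all below them in 2, Mrpl24 and Mrpl4 (background 9.94%). In the authors' deposited table, an FDR under 0.05 was listed for 1 of the 78 genes, Mrpl17 (background 2.14% for genes higher in KO).

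**Figure D1:**
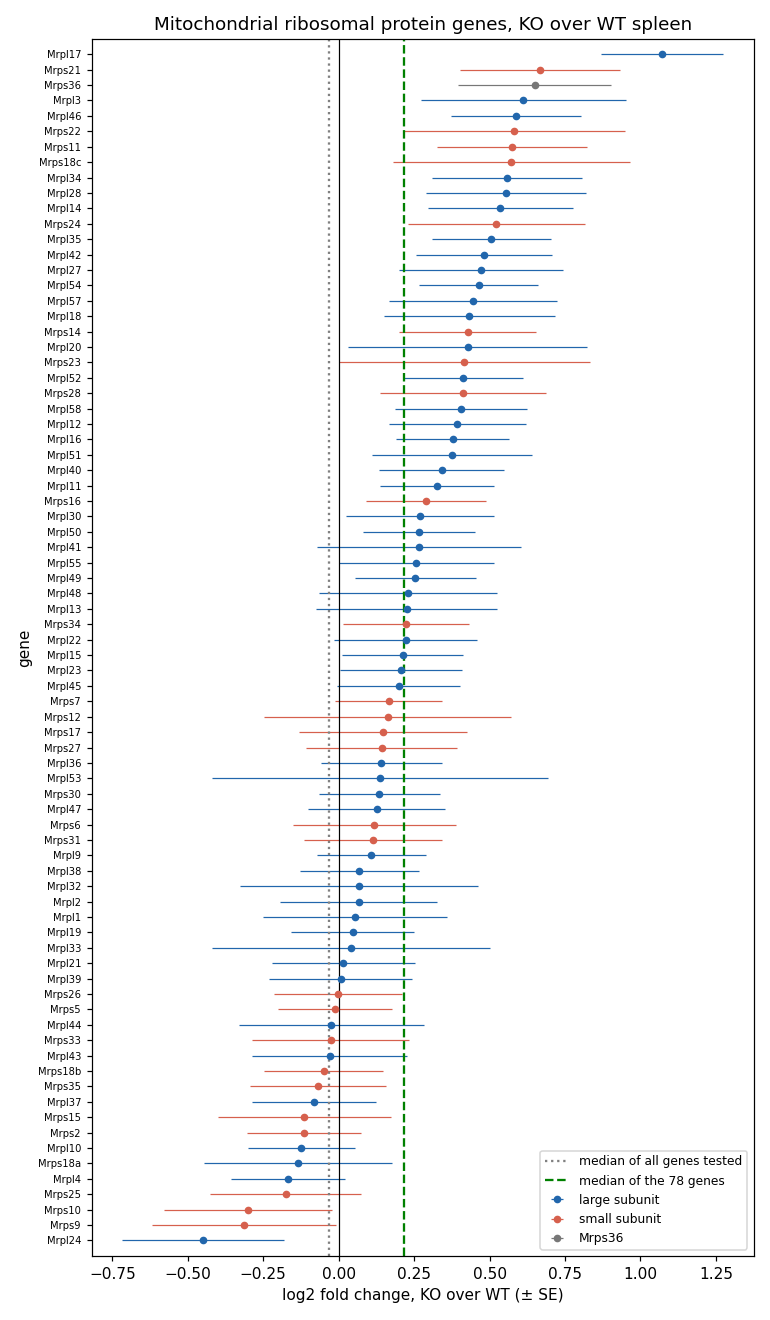
Log2 fold change (KO over WT, x axis) of each of the 78 genes (y axis, ranked), with bars of ± 1 SE from limma and n = 3 libraries per group; colours mark the subunit. Mrpl17 stands alone at 1.07, 61 genes lie above 0 and the bars of many genes cross 0. With libraries scaled to their totals, 45 lie above 0, against 8488 of the 22071 genes tested.

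The count of genes above 0 depended on how the libraries were scaled and on which WT libraries were used. Scaled to library totals, all genes moved down, to a median of -0.17, with 8488 of the 22071 genes tested higher in KO. The 78 genes then had a median of 0.07, with 45 of 78 higher in KO. Against the median of all genes the 78 genes then stood 0.24 higher, and in the main scaling 0.25 higher. Summed over the 78 genes, KO libraries held 91448 ± 5738 normalized counts and WT libraries 80967 ± 13832 (SD, n = 3 each). As a share of all reads the sums were 2570 ± 109 CPM in KO and 2512 ± 349 CPM in WT, a difference smaller than the SD of the WT libraries. WT454 and WT455 alone averaged 2315 ± 96.2 CPM (SD, n = 2), below all 3 KO libraries, which held 2459 to 2677 CPM. Without WT453, 70 of 78 genes had the higher mean in KO (background 48%), the median was 0.30, and 26 genes were higher in KO at an unadjusted p under 0.05 (background 8.53%), with 0 lower and 0 past the adjustment. Leaving out either other WT library lowered the values instead. Without WT454, 52 of 78 were higher (10450 of the 22071 genes tested) and the median was 0.14. Without WT455, 56 of 78 were higher (10350 of 22071) and the median was 0.16.

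Mrpl17 was the gene that differed most. It encodes the mitochondrial form of bacterial ribosomal protein L17, which lines the end of the exit tunnel, where the growing protein leaves the large subunit. The gene lies on chromosome 7 at 105803206 to 105811099, minus strand, in GRCm38, and its exons overlap no other annotated gene. KO spleens had 1314, 1364 and 1476 normalized counts, and WT spleens had 564, 724 and 696. Every KO library lay well above every WT library, and the gap between the groups was wider than either group's own range. The means were 1385 ± 82.9 in KO and 661 ± 85.8 in WT (SD, n = 3 each), a log2 fold change of 1.07 ± 0.20 SE, or 2.10-fold. In limma the unadjusted p was 0.00103 and the adjusted p 0.344. In the authors' deposited table its FDR was 1.89e-05. Leaving out each library in turn moved the log2 fold change between 0.96 and 1.14.

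The promoter windows of Mrpl17, Mrps21 and Mrps11, which were among the genes with the largest log2 fold changes, and of Mrpl24, which had the lowest, are given from RefSeq (GRCm38.p6) as 250 bases before to 50 bases after the annotated start, on the strand of the gene. Capitals mark the letters searched for NRF1 (GCGCANGCG), for ETS factors such as GABP (CCGGAAG) and for YY1 (AANATGGCG), on both strands; all these factors are known to drive nuclear genes for mitochondrial proteins. The windows are chr7:105811038-105811337 (minus strand) for Mrpl17, chr3:95871465-95871764 (minus strand) for Mrps21, chr7:78782881-78783180 (plus strand) for Mrps11 and chr3:87919294-87919593 (plus strand) for Mrpl24.
Mrpl17: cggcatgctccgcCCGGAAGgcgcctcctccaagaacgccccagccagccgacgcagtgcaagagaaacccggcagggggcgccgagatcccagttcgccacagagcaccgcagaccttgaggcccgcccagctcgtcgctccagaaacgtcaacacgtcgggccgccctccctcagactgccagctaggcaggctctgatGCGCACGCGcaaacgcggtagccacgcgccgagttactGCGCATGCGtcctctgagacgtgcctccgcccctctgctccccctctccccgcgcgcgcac
Mrps21: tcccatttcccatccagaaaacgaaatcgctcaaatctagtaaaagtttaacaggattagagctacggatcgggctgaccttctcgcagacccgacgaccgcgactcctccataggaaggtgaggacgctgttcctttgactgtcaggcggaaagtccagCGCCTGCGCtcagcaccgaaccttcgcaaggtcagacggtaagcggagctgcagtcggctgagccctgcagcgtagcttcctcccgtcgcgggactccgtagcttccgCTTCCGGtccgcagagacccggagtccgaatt
Mrps11: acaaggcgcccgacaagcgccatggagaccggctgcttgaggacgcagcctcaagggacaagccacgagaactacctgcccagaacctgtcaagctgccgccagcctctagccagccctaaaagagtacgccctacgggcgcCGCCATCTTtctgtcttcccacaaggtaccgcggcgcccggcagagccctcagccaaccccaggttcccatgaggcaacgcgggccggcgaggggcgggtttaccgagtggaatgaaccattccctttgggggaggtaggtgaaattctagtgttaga
Mrpl24: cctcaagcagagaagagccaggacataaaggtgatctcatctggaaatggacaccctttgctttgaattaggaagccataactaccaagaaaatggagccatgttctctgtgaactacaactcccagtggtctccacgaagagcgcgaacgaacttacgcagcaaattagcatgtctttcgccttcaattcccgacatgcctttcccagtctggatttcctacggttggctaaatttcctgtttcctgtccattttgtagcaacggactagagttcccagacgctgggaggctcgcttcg
The Mrpl17 window holds the NRF1 letters at 2 places, beginning 49 and 11 bases before the start, and the ETS letters 237 bases before it. The Mrps21 window holds the NRF1 letters 90 bases before the start and the ETS letters 18 bases after it, and the Mrps11 window the YY1 letters 108 bases before. The Mrpl24 window holds none of the 3 motifs, which says only that these letters are absent from these 300 bases. Windows not shown were mixed at both ends. Among the largest log2 fold changes, Mrpl3, Mrps22 and Mrps18c hold the ETS letters, and Mrpl46 and Mrps36 hold none of the 3 motifs. Among the lowest, Mrps9 and Mrpl10 hold the NRF1 letters and Mrps18a the ETS and YY1 letters. Mrps10, Mrps25 and Mrps2 hold none.

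Across the genes, 69 of 78 had a RefSeq window. The NRF1 letters were in 16 windows (23.2%), against 7.03% of all 27025 promoter windows. A second background was the 8554 windows of protein-coding genes with a mean of at least 103.9 normalized counts, the lowest mean of the 78 genes. Its share was 16.1%. This background has no upper limit, so it is not matched to the level of these genes. The ETS letters were in 26 (37.7%), against 9.93% and 21.7%, and the YY1 letters in 11 (15.9%), against 2.76% and 6.64%. At least 1 of these 3 motifs was in 43 windows (62.3%), against 17.2% of all windows and 37.7% of the second background. None of the 69 held all 3. For the other 6 motifs searched, CCAAT was in 39.1% against 43.5%, the GC box GGGCGG in 49.3% against 68.9%, TATAAA in 7.25% against 8.64%, the E-box CACGTG in 7.25% against 12.2%, the CRE letters TGACGTCA in 2.90% against 3.61%, and the GATA letters AGATAAG in 4.35%, or 3 windows, against 2.33%. The median log2 fold change was 0.33 in genes with the ETS letters and 0.17 without, 0.41 with the YY1 letters and 0.21 without, and 0.15 with the NRF1 letters and 0.25 without. The differences between these medians were not tested.

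After Mrpl17, the largest log2 fold changes were those of Mrps21, Mrps36, Mrpl3, Mrpl46, Mrps22, Mrps11 and Mrps18c, all between 0.57 and 0.67. Mrps21 had 1869, 1908 and 2180 normalized counts in KO and 1343, 884 and 1635 in WT (0.67 ± 0.26 SE, limma adjusted p = 0.431). Mrps36, the dehydrogenase subunit, had 1131, 734 and 719 in KO and 513, 507 and 593 in WT (0.65 ± 0.25 SE, limma adjusted p = 0.426). The groups did not overlap for either gene, but in Mrps36 a single KO library, KO451, stood far above the other KO libraries, and in Mrps21 the WT libraries spread widely, with WT454 lowest.

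Mrpl46, a mitochondria-specific protein of the central protuberance, and Mrps11, a platform protein of bacterial descent, are neighbours on chromosome 7 that point away from each other. Mrpl46 had 776, 826 and 902 normalized counts in KO and 478, 637 and 559 in WT (0.59 ± 0.22 SE, limma adjusted p = 0.406). Mrps11 had 1169, 699 and 953 in KO and 641, 585 and 628 in WT (0.57 ± 0.25 SE, limma adjusted p = 0.46). KO libraries lay above WT libraries for both. The RefSeq starts of the pair are 42 bases apart and their promoter windows share 141 bases, and in the GENCODE models 173 bases of their exons overlap on opposite strands. Whether counting used strand is not given in the sources used here, so reads of that stretch may have been given to either gene. Mrpl35, a large subunit protein named here after its values were seen, had 935, 907 and 1058 in KO and 715, 630 and 695 in WT (0.51 ± 0.20 SE, limma adjusted p = 0.425), without overlap.

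For the other large changes the WT453 library or the spread of the groups mattered more. Mrpl3, a protein near the peptidyl transferase centre, had 1929, 1504 and 1547 normalized counts in KO and 642, 1467 and 1334 in WT, so that its log2 fold change of 0.61 ± 0.34 SE was 0.24 without WT453. Mrps22, a mitochondria-specific small subunit protein whose loss causes disease in humans, had 761, 612 and 848 in KO and 283, 620 and 671 in WT, with 0.58 ± 0.37 SE in all libraries and 0.19 without WT453. Mrps18c, one of the S18 proteins, moved the other way, with 1350, 884 and 1514 in KO and 1414, 556 and 697 in WT, 0.57 ± 0.39 SE and 0.97 without WT453. WT453 was thus the lowest library for Mrpl3 and Mrps22 and above 2 of the 3 KO libraries for Mrps18c. Exons of Mrpl3 and Mrps18c also overlap other genes on the same strand, by 248 and 250 bases.

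In 17 genes the mean was lower in KO, and for several of the lowest the difference rested on WT453. Mrpl24, an exit tunnel protein, had 2123, 2388 and 2411 normalized counts in KO and 4632, 2554 and 2634 in WT (-0.45 ± 0.27 SE, limma adjusted p = 0.554). All KO libraries were below all WT libraries, but the log2 fold change was -0.17 without WT453, and 594 bases of its exons overlap Rrnad1 on the opposite strand. Mrps9, a protein of the small subunit head, had 1094, 1172 and 1187 in KO and 2270, 1123 and 1149 in WT. Mrps10, of the same head, had 486, 539 and 529 in KO and 916, 543 and 521 in WT. Their log2 fold changes of -0.31 ± 0.30 SE and -0.30 ± 0.28 SE were 0.02 and -0.04 without WT453, so KO and the remaining WT libraries were at about the same level. Mrpl4, also at the exit tunnel, had 895, 1025 and 983 in KO and 1065, 1043 and 1153 in WT (-0.17 ± 0.19 SE, limma adjusted p = 0.762), a small difference without overlap. Mrps25, Mrps18a, Mrpl10 and Mrps2 followed at -0.18, -0.13, -0.12 and -0.12, each smaller than its standard error; without WT453, Mrps25 stood at 0.05 and Mrps18a at 0.20.

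**Figure D2:**
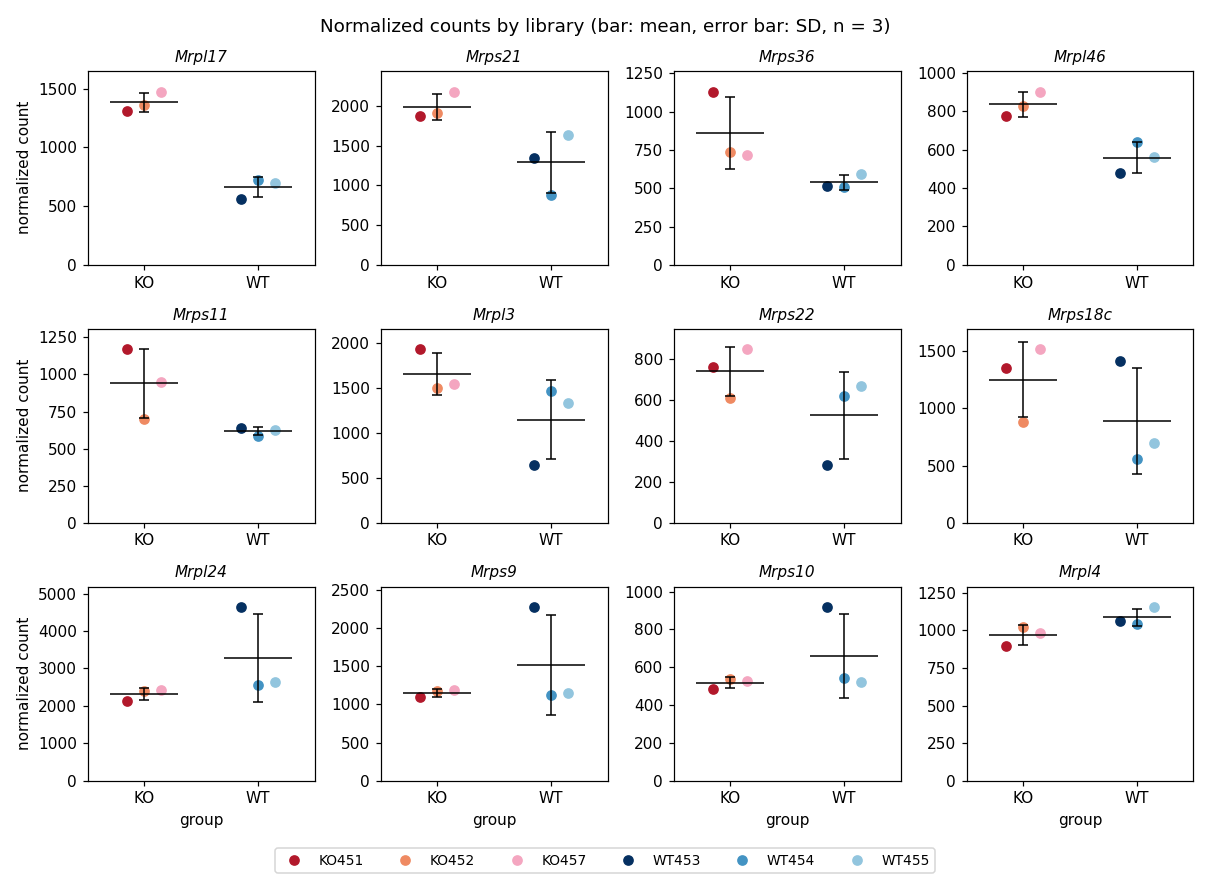
Normalized counts (y axis, from 0) of 12 genes in the 3 KO (left) and 3 WT (right) libraries, 1 point per library; the line is the group mean and the bar ± SD. Mrpl17 separates the groups by the widest gap, while Mrpl24, Mrps9 and Mrps10 show a single high WT library, WT453.

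By subunit, the mean was higher in KO in 44 of the 51 large subunit genes, whose median log2 fold change was 0.23. It was higher in 16 of the 26 small subunit genes, whose median was 0.14. With libraries scaled to their totals, the medians were 0.08 (31 of 51 higher) and -0.00 (13 of 26 higher). Over all genes tested the median was then -0.17 (8488 of 22071 higher). Genes with a bacterial counterpart and mitochondria-specific genes stood alike in median, at 0.21 (37 of 47 higher) and 0.23 (24 of 31 higher). The differences between these classes were not tested.

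Within the large subunit, the 7 genes of the central protuberance all had the higher mean in KO, with a median log2 fold change of 0.41 (6 of 7 with library totals, where Mrpl38 stood at -0.08). Beside Mrpl46 they were Mrpl27 at 0.47, Mrpl18 at 0.43, Mrpl58 at 0.41, Mrpl40 at 0.34, Mrpl48 at 0.23 and Mrpl38 at 0.07. Without WT453, Mrpl18 stood at 0.72, Mrpl48 at 0.53 and Mrpl38 at 0.12. The central protuberance faces the small subunit and binds a tRNA built into the mammalian mitoribosome, and Mrpl58 is a peptidyl-tRNA hydrolase, also known as Ict1, that belongs to the ribosome rescue system. Of the 7, only Mrpl46 had an unadjusted p under 0.05. Of the 3 stalk genes, Mrpl12 stood at 0.39 and Mrpl11 at 0.33, and Mrpl10 at -0.12. The 7 exit tunnel genes held both the highest and the lowest log2 fold change of all 78, Mrpl17 and Mrpl24, around a median of 0.20, with 5 of 7 higher in KO (4 with library totals).

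Within the small subunit, 4 of the 5 platform genes had the higher mean in KO, with a median of 0.57, namely Mrps21, Mrps11, Mrps18c and Mrps6 (0.12, 0.05 without WT453 and -0.027 with library totals), while Mrps15 stood at -0.11 (0.18 without WT453). Of the 5 genes listed here for the head, all with a bacterial counterpart, Mrps24 and Mrps14 stood at 0.52 (0.82 without WT453) and 0.43. Mrps7 stood at 0.17, against Mrps9 and Mrps10 below 0, for a median of 0.17. Mitochondria-specific small subunit genes were not on this list. The 3 S18 paralogs, which descend from a single bacterial protein and of which Mrps18a belongs to the large subunit, stood at -0.13 (Mrps18a), -0.05 (Mrps18b) and 0.57 (Mrps18c). Their standard errors were 0.31, 0.20 and 0.39, and the differences between them were not tested. Mrps18a had 940, 976 and 995 normalized counts in KO and 1702, 795 and 892 in WT, and Mrps18b had 791, 909 and 800 in KO and 805, 847 and 936 in WT.

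The WT libraries differed among themselves by more than the group means did. The mean log2 level of the 78 genes, set to 0 over the 6 libraries, was 0.10 in KO451, 0.03 in KO452 and 0.20 in KO457, against 0.10 in WT453, -0.27 in WT454 and -0.16 in WT455. KO457 was the highest of the 6 libraries in 29 of the 78 genes, against 9.37% of all genes tested, and WT453 also in 29, against 31.7%. WT454 was the lowest library in 46 of the 78 genes, against 16.2% of all genes tested. All 3 KO libraries lay above both WT454 and WT455 in 47 genes, against 19.2% of all genes tested. They lay below both in 2, against 4672 of the 22071 genes tested.

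WT453 moved the genes in both directions. It lay above both other WT libraries in 52 genes (44.2% over all genes tested) and below both in 15 (38.7%). The difference in log2 value between WT453 and the mean of WT454 and WT455 had a median of 0.29 and reached 1.59 in Mrpl53 and in Mrpl33, 1.39 in Mrpl20 and 1.36 in Mrps12, and at the other end -1.34 in Mrps23, -1.18 in Mrps22 and -1.12 in Mrpl3. Mrps12, a decoding-site protein, had 727, 874 and 796 normalized counts in KO and 1338, 423 and 637 in WT. Mrps23, a mitochondria-specific small subunit protein, had 999, 1789 and 1458 in KO and 556, 1392 and 1416 in WT. WT453 lay above every KO library for Mrps12, with the other WT libraries below every KO library, and for Mrps23 it lay below all 5 other libraries. Mrpl20, Mrpl33, Mrps12 and Mrps23 were named after their values were seen.

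**Figure D3:**
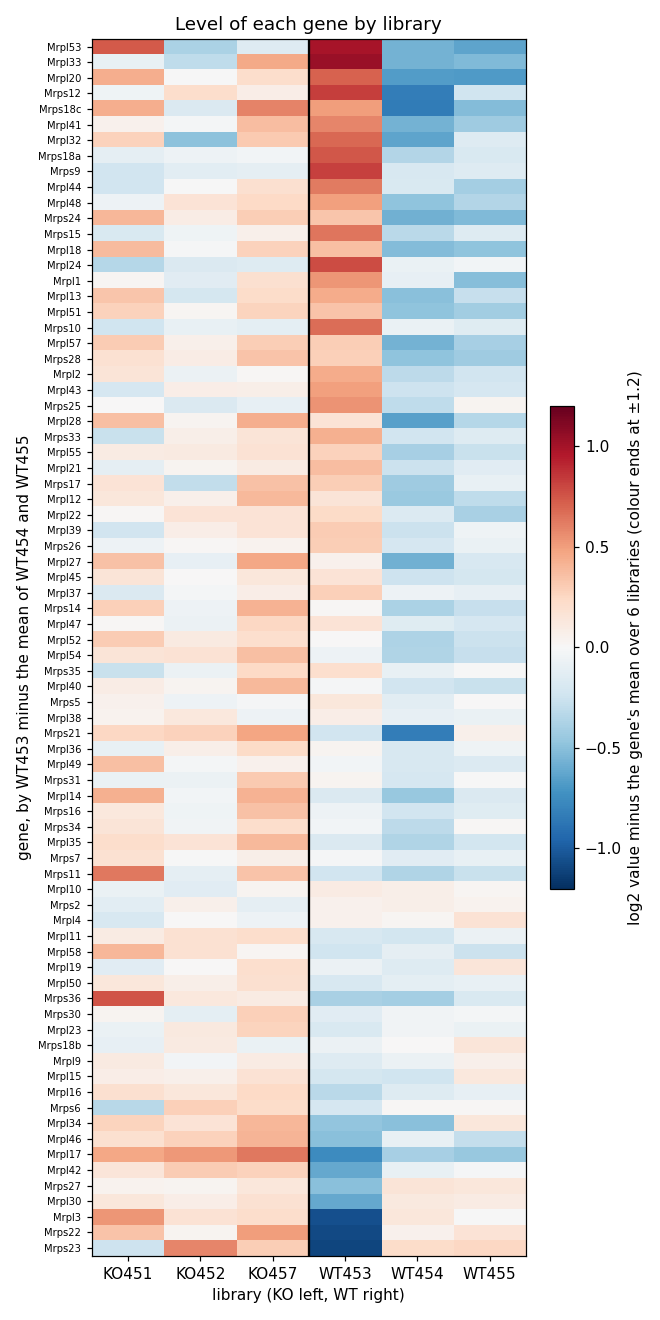
Each gene's log2 value minus its mean over the 6 libraries (colour, red high and blue low) for the 78 genes (rows, ordered by WT453 minus the mean of WT454 and WT455) and the libraries (columns, KO left of WT). WT453 is red in the upper rows and blue in the lowest, while WT454 is blue in most rows, as the 46 genes in which it was lowest show.

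Marker genes of cell types moved between the same libraries. Markers of proliferating cells, a state in which mitoribosomes are made, had levels of 1.51, -0.12 and 0.50 in the KO libraries (KO451, KO452, KO457) and 0.31, -1.41 and -0.79 in the WT libraries (WT453, WT454, WT455), on the same centred log2 scale. Their summed normalized counts over 8 genes ranged from 47001 to 152614 in KO and from 19086 to 73844 in WT, and all 8 had the higher mean in KO. Neutrophil markers had levels of -0.09, -0.78 and 1.44 in KO and 2.25, -1.94 and -0.89 in WT, with 6 of 8 higher in KO. Like the mitochondrial ribosomal protein genes, both lists were lowest in WT454 and next lowest in WT455, and WT453 stood among or above the KO libraries.

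Erythroid markers separated the groups instead, with levels of 2.55, 0.51 and 0.86 in KO and -1.72, -1.52 and -0.68 in WT, and sums over 10 genes of 63562 to 297271 in KO and 11042 to 28819 in WT. All 10 were higher in KO. Red pulp macrophage markers were higher in KO in 8 of 8, with sums of 165797 to 263600 in KO and 42514 to 141299 in WT. B cell markers were lower in KO in 8 of 8 (sums of 50854 to 96077 in KO and 47849 to 155666 in WT), and T cell markers also in 8 of 8 (14186 to 25561 in KO and 15623 to 36194 in WT). Plasma cell markers were higher in 4 of 6 in KO and in 2 of 6 without WT453. No marker of these lists was at 0 in any library. Of the 6 markers of pancreas, a neighbouring organ, 2 were in the table; Cpa1 had 0 to 5.19 normalized counts, at 0 in 4 libraries, and Cela1 had 1165 to 1481 in KO and 466 to 771 in WT. The part of these cell types in the levels of the mitochondrial ribosomal protein genes was not tested.

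**Figure D4:**
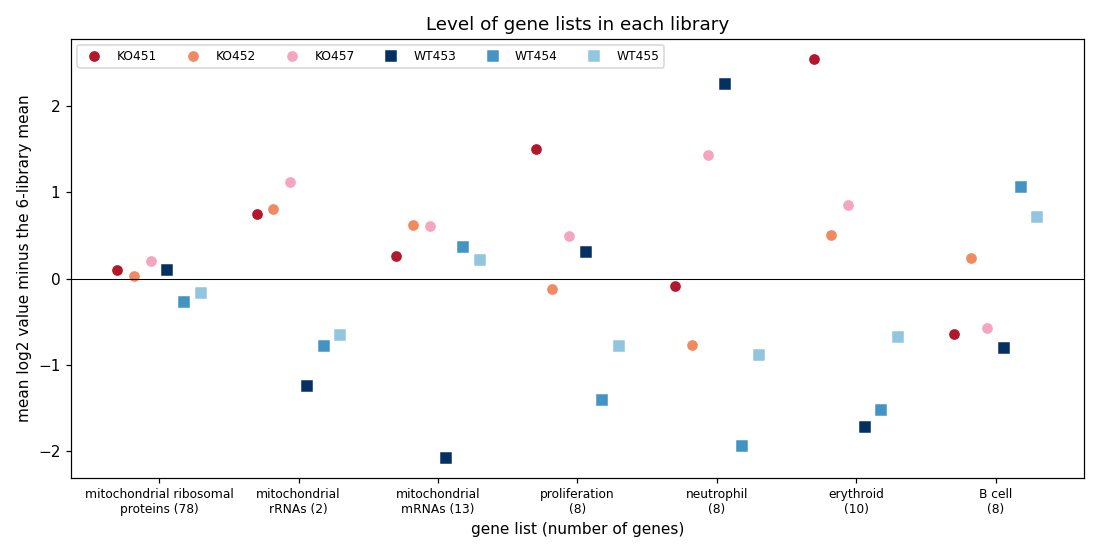
Mean log2 value, minus the mean over the 6 libraries (y axis), of 7 gene lists (x axis, number of genes in brackets) in each library; circles are KO and squares WT. The ribosomal protein genes span 0.20 to -0.27, less than any other list shown; WT453 stands high for neutrophil and low for mitochondrial mRNA genes.

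The RNA partners of these proteins differed more than the proteins' own genes. The mitochondrial rRNA mt-Rnr1, around which the small subunit is built, had 66966, 69162 and 85543 normalized counts in KO, against 18990, 24310 and 26797 in WT. The large subunit rRNA mt-Rnr2 had 107824, 113895 and 140888 in KO, against 23950, 35802 and 38482 in WT. The groups were far apart for both. The log2 fold changes were 1.67 ± 0.23 SE for mt-Rnr1 and 1.90 ± 0.26 SE for mt-Rnr2, with an adjusted p of 0.344 each in limma. With array quality weights, a setting added after the data were seen, the adjusted p was 0.0241 for mt-Rnr1 and 0.0213 for mt-Rnr2. In the authors' deposited table both had an FDR under 0.05. Libraries were made with an mRNA kit, per the labels' protocols, so these counts are of the rRNA that remained in them. The 13 mitochondrial mRNAs all had the higher mean in KO, with a median of 0.98, of which 0.18 remained without WT453. For example, mt-Co3, a cytochrome c oxidase subunit, had 200896, 263741 and 268144 normalized counts in KO and 56565, 195813 and 176651 in WT.

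The 5 mitoribosome proteins without an Mrp symbol held 2 with a higher mean in KO, with a median of -0.04 and 0.31 without WT453. Chchd1, a small subunit protein, had 1176, 1036 and 1197 normalized counts in KO and 642, 771 and 777 in WT, without overlap (0.64 ± 0.20 SE, limma adjusted p = 0.356), and an FDR of 0.0267 in the authors' deposited table. Gadd45gip1 of the large subunit stood at 0.16 (0.48 without WT453), and Ptcd3 of the small subunit at -0.17 (-0.06 without WT453).

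Lists of genes that act with or on mitoribosomes had medians near or below 0. Of 12 translation factors, 7 had the higher mean in KO, with a median of 0.04 (0.12 without WT453, -0.10 with library totals); Mtfmt, which formylates the initiator methionyl-tRNA, had 197, 242 and 236 normalized counts in KO and 392, 321 and 320 in WT (-0.61 ± 0.25 SE, limma adjusted p = 0.442). Taco1, a translational activator of cytochrome c oxidase subunit I, stood at 0.35 ± 0.29 SE (0.12 without WT453), and Gfm2, a ribosome recycling factor, at -0.21 ± 0.19 SE. Of 22 genes for assembly and rRNA modification, 9 were higher, with a median of -0.08 (0.00 without WT453). Among them Mettl17, an assembly factor of the small subunit, had 219, 337 and 228 in KO and 1240, 557 and 429 in WT (-1.38 ± 0.43 SE, limma adjusted p = 0.355; FDR of 0.0162 in the authors' deposited table). Mettl17 was lower in every KO library than in every WT library. Its log2 fold change was -0.93 without WT453, and 151 bases of its exons overlap Slc39a2 on the same strand. The rRNA methyltransferase Nsun4 stood at -0.47 ± 0.26 SE and the helicase Dhx30 at -0.41 ± 0.19 SE.

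Of 17 mitochondrial aminoacyl-tRNA synthetases, 6 had the higher mean in KO, with a median of -0.19 (-0.06 without WT453). The glutamyl enzyme Ears2 stood at -0.59 ± 0.28 SE and the asparaginyl enzyme Nars2 at 0.45 ± 0.27 SE. Of 12 genes for transcription and replication of mitochondrial DNA, 2 were higher, with a median of -0.32 (-0.18 without WT453). Polrmt, the mitochondrial RNA polymerase, had 508, 501 and 432 in KO and 666, 742 and 841 in WT (-0.64 ± 0.22 SE, limma adjusted p = 0.377; FDR of 0.0477 in the authors' deposited table). The subunits of DNA polymerase gamma, Polg2 and Polg, stood at -0.96 ± 0.50 SE and -0.32 ± 0.18 SE, and Polg2 at -0.39 without WT453, which had 771 normalized counts against 248 and 215 in the other WT libraries. Of 10 regulators known to act on promoters of mitochondrial genes, 2 were higher, with a median of -0.14: Nrf1, the factor of the NRF1 motif, stood at 0.45 ± 0.29 SE (0.17 without KO451), Esrra at -0.48 ± 0.30 SE (-0.16 without WT453), and Ppargc1a, with 4 to 54 normalized counts a library, at -1.13 ± 1.01 SE (-2.20 without WT453). In these 8 lists of partner genes, 0 genes passed the adjustment in limma. At an unadjusted p under 0.05 there were 5 of 93 genes higher in KO (5.38%, background 5.5%) and 3 lower (3.23%, background 5.46%), shares at or below those of all genes. Among the higher ones was mt-Nd3, a mitochondrially encoded complex I subunit with an adjusted p of 0.454.

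**Figure D5:**
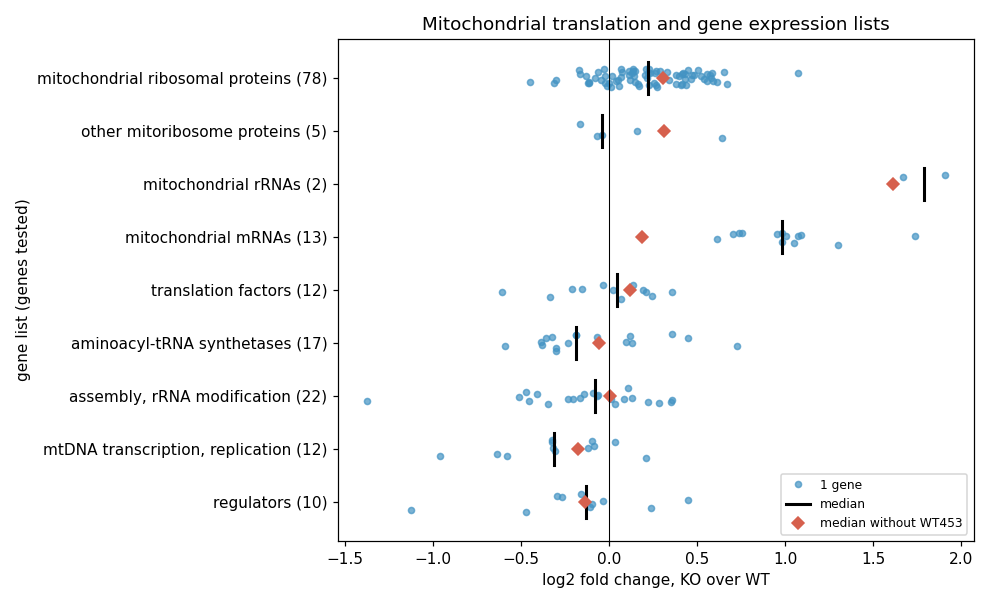
Log2 fold change (KO over WT, x axis) of each gene tested in 9 lists (y axis, number of genes in brackets); points are genes, black lines medians and diamonds the medians without WT453. The mitochondrial mRNA median falls to 0.18 without WT453, while the rRNAs stay above 1.5 and the ribosomal protein genes at 0.30.

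Many of these genes have an annotated start close to that of a neighbour on the other strand. Whether such pairs share a promoter was not tested. By the outermost starts of the GENCODE models, 23 of 78 (29.5%) began head to head with a protein-coding gene that was tested, within 1000 bases or with up to 250 bases of overlap, against 11.4% of the 15268 protein-coding genes tested. Among the pairs were Mrps12 with Sars2, the mitochondrial seryl-tRNA synthetase, Mrpl36 with Ndufs6, a complex I subunit, and Mrpl49 with Fau, a cytosolic ribosomal protein. Among the 23 genes, 18 had the higher mean in KO (median log2 fold change 0.17, and 0.28 without WT453), as did 8 of their 23 partners (median -0.14; 9 of 23 and -0.13 without WT453). In a pair such as Mrpl49 (0.25) and Fau (-0.31), the genes stood on opposite sides of 0, with standard errors of 0.20 each, and the difference was not tested.

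Counting across shared exons touched many of these genes. Exons of 33 of the 78 genes overlap exons of another annotated gene, on the same strand in 8 and on the other strand in 28. Among them, Mrpl53 (695 bases) and Mrpl33 (261 bases) overlap another gene on the same strand. Mrps25 (4590 bases, with Nr2c2), Mrpl47 (1068), Mrps18b (638), Mrpl10 (240), Mrpl12 (200) and Mrpl18 (141, with Tcp1) do so on the other strand. The 45 genes without overlap had the higher mean in KO in 35, with a median log2 fold change of 0.26. The 39 genes with the shorter longest transcripts had a median of 0.27 and the 39 with the longer ones 0.17, and without WT453 0.46 and 0.24. Across the 78 genes, Spearman's rho between transcript length and log2 fold change was -0.27, and -0.36 without WT453, which is given as a description because the genes share the 6 libraries. Whether length or RNA quality had a part in the values was not tested.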

How the data were processed

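RNA from the spleens of KO and WT mice was made into libraries with an mRNA kit, per the labels' protocols. STAR 2.5.3a, FastQC 0.11.5, DESeq, StringTie 1.3.1c and the build GRCm38 are listed in the submitters' processing notes. No source used here gives the counting step, the annotation or the strand setting. The authors deposited 26452 genes with a log2 value per library and their own log2 fold change, p-value and FDR. The log2 values are log2(read count / size factor + 1): all values (100%) were whole multiples of 1 step per library within 0.001, which gave back whole reads.

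The main test was limma 3.58.1 in R 4.3.3 with an intensity trend on the deposited log2 values (pseudocount 1), KO against WT, over the 22071 genes with a mean normalized count of at least 1 (4381 were left out), with Benjamini-Hochberg adjustment and a threshold of 0.05. It was also run on simulated data with known changes, far larger than the median shift of these genes and with independent noise. That check does not cover small shifts or a library that stands apart. Fold changes on this scale understate those of low genes. No label states that the libraries of a group are separate animals, so p-values may measure technical spread only, and no batch is stated. Intervals are SE or SD.

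The genes and lists were chosen with earlier results of these data known. Named were, by rule, the 8 largest and 8 smallest log2 fold changes, the 6 highest and 4 lowest levels per kilobase, the S18 paralogs, genes past a threshold, the gene nearest the minimum and up to 3 per list, of which some are not reported here; the site lists were completed with members named after their values were seen. Alternatives were other pseudocounts, filters, scalings, voom, array quality weights and each library left out. Gene models were GENCODE vM21 (GRCm38); promoter windows were from RefSeq (GRCm38.p6).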

Additional observations from a re-analysis of the deposited data

How the results depend on the processing

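Over 16 settings no mitochondrial ribosomal protein gene passed an adjusted p of 0.05, and the smallest adjusted p was 0.0592, for Mrpl17 with array quality weights. The count at an unadjusted p under 0.05 was 6 in the main setting. It was 3 with quantile normalization (5.40% of all genes higher in KO) and 1 with library totals (3.84%). With totals without haemoglobin, immunoglobulin and mitochondrial genome genes it was 1 (4.73%). Array quality weights, added after the data were seen, gave 30 (13.2%). With a library left out the count was 2 to 26. Without WT453 it was 26 (8.53%), without KO457 2 (4.08%) and without WT454 2 (3.95%). Without KO451 it was 3 (3.44%) and without WT455 3 (4.43%). The count of genes whose groups do not overlap, 22, was 23 to 49 with a library left out, 49 without WT453. Leaving out a library eases this for every gene: 19.5% of all genes did not overlap with all libraries and 40.3% without WT453. In the 45 genes without exon overlap, a setting added later, 35 were higher in KO and 14 did not overlap. The median of 0.22 was 0.14 with quantile normalization and 0.07 with library totals, and 0.14 to 0.30 with a library left out (0.14 without WT454). Library totals moved the median of all genes by -0.13.

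Changes of sign were followed gene by gene only for 41 named mitochondrial ribosomal protein genes and for the named partner genes. Of the 41 genes, 13 changed sign in at least 1 setting. These reversals were at values near 0 in the main setting or in genes where 1 library stood apart. Genes outside this selection also reversed. Over all mitochondrial ribosomal protein genes, 61 were higher in KO in the main setting and 45 with library totals. With a library left out, Mrpl1 ranged from -0.19 to 0.33 and Mrpl32 from -0.23 to 0.43. The values that follow are for the named genes. With library totals Mrpl47 stood at -0.020, Mrpl53 at -0.0081, Mrps6 at -0.027, Mrpl38 at -0.077 and Mrpl33 at -0.11 (-0.0093 with quantile normalization and -0.0066 with the reduced totals). With array quality weights Mrps18a and Mrps15 stood at 0.14 each and Mrps35 at 0.046. With a library left out, Mrpl53 ranged from -0.20 to 0.67, Mrpl33 from -0.24 to 0.57, Mrps18a from -0.34 to 0.20, Mrps18b from -0.11 to 0.011, Mrps25 from -0.37 to 0.051, Mrps15 from -0.30 to 0.18, Mrps35 from -0.20 to 0.051, Mrps9 from -0.49 to 0.018, Mrps12 from -0.21 to 0.62, Mrps23 from -0.029 to 0.65 and Gadd45gip1 from -0.016 to 0.48. The cause was not tested. Was kept its direction, and its adjusted p passed 0.05 without WT453 but not with any other library left out. No paired analysis was possible because the labels give no pairing and the groups share no replicate numbers. With 3 libraries per group, standard errors of 0.18 to 0.56 limit what can be called, and each gene had at least 58 reads in every library.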
